A study of Arabidopsis thaliana with 4 samples.

Results

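The superoxide dismutase genes of Arabidopsis thaliana and CCS, the gene of the copper chaperone that loads the copper enzymes, were compared between a TRIC1 and TRIC2 double mutant and wild type. The members were the 8 loci CSD1 (AT1G08830), CSD2 (AT2G28190), CSD3 (AT5G18100), FSD1 (AT4G25100), FSD2 (AT5G51100), FSD3 (AT5G23310), MSD1 (AT3G10920) and CCS (AT1G12520). They were chosen by these identifiers from the 34133 loci of each table, and all 8 had a test in both tissues. The 4 groups were dko rosettes (labelled AtTric1&2 dko, rosette leaves of 4-week plants), wild-type rosettes (Col0), dko seedlings (whole seedlings of 2 weeks) and wild-type seedlings. All plants were stratified at 4 °C for 2 days and grown at 22 °C with a 16 h photoperiod under light given in the labels as 80 nmol quanta per square metre and second. All were sown on MS medium, and the plants for rosettes went to soil on day 5. The high and low light that the series' design also mentions were not analysed here. The labels name neither the mutant alleles nor the number of lines, and state 3 replicates for each group without saying whether these were separate plants or pools. The spread behind each p-value may therefore be technical. The authors deposited 1 pooled FPKM (a transcript level corrected for transcript length and library size) per group, so no value carries a standard deviation, the depth is unknown, and the error of each comparison is that of the authors' Cuffdiff test, called here at a q-value below 0.05.

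Superoxide dismutases turn superoxide into hydrogen peroxide and oxygen. Plants hold a copper and zinc form (CSD1 in the cytosol, CSD2 in plastids, CSD3 in peroxisomes), an iron form (FSD1 in plastids and the cytosol, FSD2 and FSD3 in plastids) and a manganese form (MSD1 in mitochondria). When copper is scarce, the transcription factor SPL7 raises FSD1 and the microRNA miR398, and miR398 lowers the transcripts of CSD1, CSD2 and CCS, which is why plants with ample copper show much CSD and little FSD1. FSD2 and FSD3 also belong to the protein complex around the plastid-encoded RNA polymerase, where they are known as PAP9 and PAP4, and plants that lack them form pale chloroplasts.

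The miR398 sequences and their sites are shown because CSD1, CSD2 and CCS are known targets of this microRNA and the other members are not. The mature sequences were read from the TAIR10.1 genome at the RefSeq positions of the 3p arms, 5′ to 3′, with the seed (bases 2 to 8) in capitals. The 3 loci share 1 seed, and miR398b and miR398c are identical.
miR398a: uGUGUUCUcaggucaccccuu
miR398b: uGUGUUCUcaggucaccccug
miR398c: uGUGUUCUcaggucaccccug
Each RefSeq transcript was searched for its best match to miR398c, with at most 1 unpaired transcript base, a penalty of 1 per mismatch and 0.5 per G:U pair, doubled at positions 2 to 13 of the microRNA, and 2 for the unpaired base. Below, capitals mark the bases that form Watson-Crick pairs with miR398c.
CSD1: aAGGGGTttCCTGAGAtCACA
CSD2: tgcGGGTGACCTGgGAAaCAtA
CCS: attGGGaGACCTGgGAACACt
COX5B-1: aAGGtGTGACCTGAGAAtCACA
CSD1, CSD2 and CCS each reached a penalty of 6, a score that 33 of 27438 genes (0.12%) met or bettered. COX5B-1, the gene of a subunit of mitochondrial cytochrome c oxidase and another known miR398 target, reached 4, a score met or bettered by 2 genes in all, and its site lies in the 5′ untranslated region (chr3:5299204-5299225, plus). The CSD1 site lies in the 5′ untranslated region across an exon junction (chr1:2827177-2827685, plus strand, TAIR10.1), and those of CSD2 (chr2:12015572-12015593, plus) and CCS (chr1:4267521-4267541, minus) lie in coding sequence. The best matches of CSD3, FSD1, FSD2, FSD3 and MSD1 had penalties of 9.5, 9, 8.5, 11.5 and 11.5, scores that 4.04% or more of all genes met. A match describes letters and is no measurement of cleavage.

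The SPL7 binding site has the core GTAC, which reads the same on both strands. Of 27443 protein-coding genes, 34.3% held at least 1 GTAC in the 250 bases before their annotated start. FSD1, CCS and CSD3 held 1 each, CSD1 held 2 side by side, and CSD2, FSD2, FSD3 and MSD1 held none. The window of FSD1 is given because FSD1 was the only member that fell in rosettes (chr4:12887012-12887261, minus strand, TAIR10.1, 5′ to 3′, GTAC in capitals).
FSD1: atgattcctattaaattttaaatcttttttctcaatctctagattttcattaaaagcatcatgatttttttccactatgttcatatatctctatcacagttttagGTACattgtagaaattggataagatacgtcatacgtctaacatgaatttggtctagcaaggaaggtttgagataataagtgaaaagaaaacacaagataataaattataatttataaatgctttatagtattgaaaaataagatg
Of all such windows, 7.67% held at least 2 GTAC, as CSD1 did. The counts are descriptions and show no binding.

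Both targeted genes had lower FPKM in the groups labelled dko than in wild type, and only TRIC2 was near 0. In the authors' deposited tables TRIC1 stood at 10.7 FPKM in dko rosettes against 34.7 FPKM in wild-type rosettes (q = 0.000899), and at 16.2 FPKM in dko seedlings against 33.9 FPKM in wild-type seedlings (q = 0.000768). TRIC2 had 0.069 FPKM in dko rosettes and 17.5 FPKM in wild-type rosettes, a difference that did not pass in the authors' deposited table (q = 0.146), and 0.366 FPKM in dko seedlings and 17.7 FPKM in wild-type seedlings (q = 0.000768). Of 3 root genes examined to see what the whole seedlings held, PYK10, a root beta-glucosidase, had 178 FPKM in dko seedlings and 213 FPKM in wild-type seedlings, whereas the root-hair gene COBL9 (0.214 and 0.0673 FPKM) and the vacuolar channel gene TIP2;3 (0.298 and 0.477 FPKM) were near 0 in dko and wild-type seedlings alike, in the authors' deposited table. Rescaling FPKM to nuclear-encoded loci moved the median log2 ratio of all tested loci to 0.29 in rosettes and 0.20 in seedlings, against 0.01 in both as deposited, and ratios are given as deposited unless stated. In tissues sequenced as a whole, fewer cells of a type and less RNA per cell cannot be told apart.

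In rosette leaves 5 of the 8 genes differed between dko and wild type. Transcripts of the plastid enzymes CSD2, FSD2 and FSD3 and of the copper chaperone CCS rose, and that of FSD1 fell. Those of CSD1, CSD3 and MSD1 did not pass the test. Among all tested loci of the authors' deposited rosette table, 7.81% passed as higher in the dko and 8.94% as lower. In seedlings 2 of the 8 genes rose, FSD2 and FSD3, and none fell in the Cuffdiff test (0 also at an unadjusted p below 0.05), where 8.4% of all tested loci of the authors' deposited seedling table were higher and 8.14% lower.

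**Figure D1:**
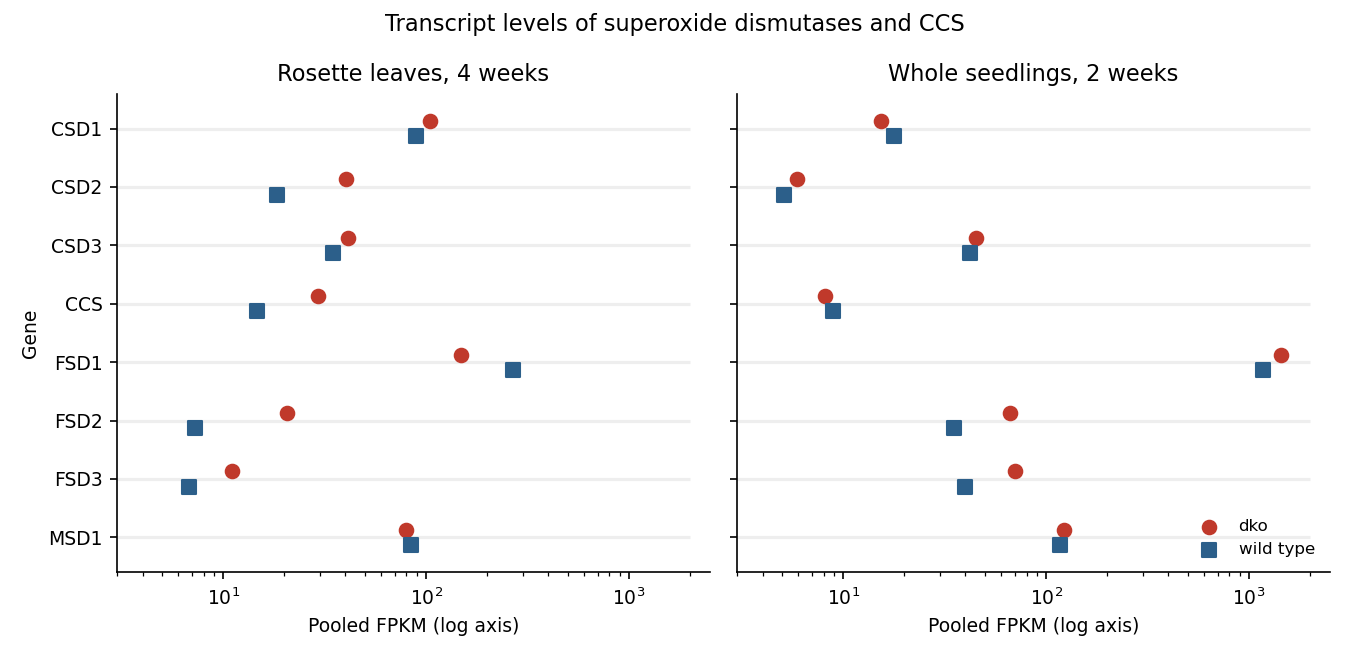
Pooled FPKM (log axis) of each superoxide dismutase gene and CCS in dko (circles) and wild type (squares), for rosette leaves (left) and whole seedlings (right), 1 pooled value per group with no error of its own. FSD1 is the highest in all 4 groups, with 149 FPKM in dko rosettes, 269 FPKM in wild-type rosettes, 1439 FPKM in dko seedlings and 1175 FPKM in wild-type seedlings.

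Among the copper and zinc enzymes, only CSD2, the plastid form, passed the test in rosettes. In the authors' deposited table CSD2 had 40.4 FPKM in dko rosettes and 18.3 FPKM in wild-type rosettes, 2.21-fold higher in the dko (log2 ratio 1.14, q = 0.000899). In the authors' deposited table CSD1, the cytosolic form, had 105 FPKM in dko rosettes and 89.4 FPKM in wild-type rosettes (log2 ratio 0.23, q = 0.571). The authors' deposited table gave CSD3, the peroxisomal form, 41.3 FPKM in dko rosettes and 34.8 FPKM in wild-type rosettes (log2 ratio 0.25, q = 0.730). CSD1 and CSD2 carry equally scored miR398 sites, shown above, yet only the plastid gene passed; the difference between these genes was not tested.

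In seedlings none of the 3 copper and zinc enzymes passed the test. CSD1 had 15.4 FPKM in dko seedlings and 17.7 FPKM in wild-type seedlings (log2 ratio -0.21, q = 0.545 in the authors' deposited table). CSD2 had 5.91 FPKM in dko seedlings and 5.10 FPKM in wild-type seedlings (log2 ratio 0.21, q = 0.587 in the authors' deposited table), and CSD3 had 45.3 and 42.3 FPKM in dko and wild-type seedlings (log2 ratio 0.10, q = 0.837). CSD1 and CSD3 overlap AT1G08840 and AT5G18110 on the other strand, and the tables give each such pair 1 shared span. AT1G08840 was low beside CSD1, with 0.973 and 1.09 FPKM in dko and wild-type rosettes and 2.55 and 2.19 FPKM in dko and wild-type seedlings, but AT5G18110, at 38.3 and 33.9 FPKM in dko and wild-type rosettes and 38.5 and 35.2 FPKM in dko and wild-type seedlings in the authors' deposited tables, was close to CSD3. CSD3 and AT5G18110 overlap in part, and the long non-coding RNA AT5G02875, not analysed here, also overlaps CSD3. The libraries were stranded, but whether counting used strand was not given in the sources used here.

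CCS, the protein that hands copper to the CSD enzymes, rose in rosettes. In the authors' deposited table it had 29.3 FPKM in dko rosettes and 14.6 FPKM in wild-type rosettes (log2 ratio 1, q = 0.000899). In seedlings it had 8.14 FPKM in the dko and 8.90 FPKM in wild type (log2 ratio -0.13, q = 0.694 in the authors' deposited table), with a ratio of 0.06 after rescaling to nuclear-encoded loci. The quotient of CCS over CSD2 was 0.726 in dko rosettes and 0.802 in wild-type rosettes, and that of CCS over CSD1 was 0.280 in dko rosettes and 0.164 in wild-type rosettes, both from FPKM and without error.

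In rosettes the iron enzymes parted into FSD1 on one side and FSD2 and FSD3 on the other. In seedlings all 3 had log2 ratios above 0, and differences between genes were not tested. FSD1, the iron enzyme of plastids and cytosol that is high when copper is low, had 149 FPKM in dko rosettes and 269 FPKM in wild-type rosettes, 55.3% of the wild-type level (log2 ratio -0.86, q = 0.00403 in the authors' deposited table). After rescaling to nuclear-encoded loci this ratio was -0.58. In seedlings it had 1439 FPKM in the dko and 1175 FPKM in wild type (log2 ratio 0.29, q = 0.306 in the authors' deposited table). FSD1 stood above 96.9% of tested nuclear loci in dko rosettes and 98.5% in wild-type rosettes, and above 99.8% in dko seedlings and 99.6% in wild-type seedlings.

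FSD2 and FSD3, the iron enzymes bound to the plastid RNA polymerase complex, passed the test in both tissues. FSD2 had 20.7 FPKM in dko rosettes and 7.27 FPKM in wild-type rosettes (2.85-fold, log2 ratio 1.51, q = 0.000899 in the authors' deposited table). In seedlings FSD2 had 66.4 FPKM in the dko and 35.3 FPKM in wild type (1.88-fold, log2 ratio 0.91, q = 0.000768 in the authors' deposited table). FSD2 stood above 73.1% of tested nuclear loci in dko rosettes and above 43.8% in wild-type rosettes.

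FSD3 had 11.0 FPKM in dko rosettes and 6.8 FPKM in wild-type rosettes (1.62-fold, log2 ratio 0.69, q = 0.0442 in the authors' deposited table), which did not pass a threshold of 0.01. In seedlings FSD3 had 69.9 FPKM in the dko and 40.0 FPKM in wild type (1.75-fold, log2 ratio 0.81, q = 0.000768 in the authors' deposited table). The quotient of FSD2 over FSD3 was 1.89 in dko rosettes and 1.07 in wild-type rosettes, and 0.950 in dko seedlings and 0.882 in wild-type seedlings.

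MSD1, the manganese enzyme of mitochondria, had 79.5 FPKM in dko rosettes and 84.0 FPKM in wild-type rosettes (log2 ratio -0.08, q = 0.864 in the authors' deposited table), and 122 FPKM in dko seedlings and 117 FPKM in wild-type seedlings (log2 ratio 0.06, q = 0.837). The rosette ratio was 0.20 when FPKM were rescaled to nuclear-encoded loci. MTM1, a mitochondrial carrier linked to the activation of manganese superoxide dismutase, had 3.04 FPKM in dko rosettes and 1.78 FPKM in wild-type rosettes (q = 0.0697 in the authors' deposited table), and 2.75 and 2.22 FPKM in dko and wild-type seedlings (q = 0.398). MSD2, the second manganese gene, is listed at 0 in wild type of both tissues and at 0.0473 FPKM in dko rosettes and 0.0282 FPKM in dko seedlings in the authors' deposited tables, without a test.

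**Figure D2:**
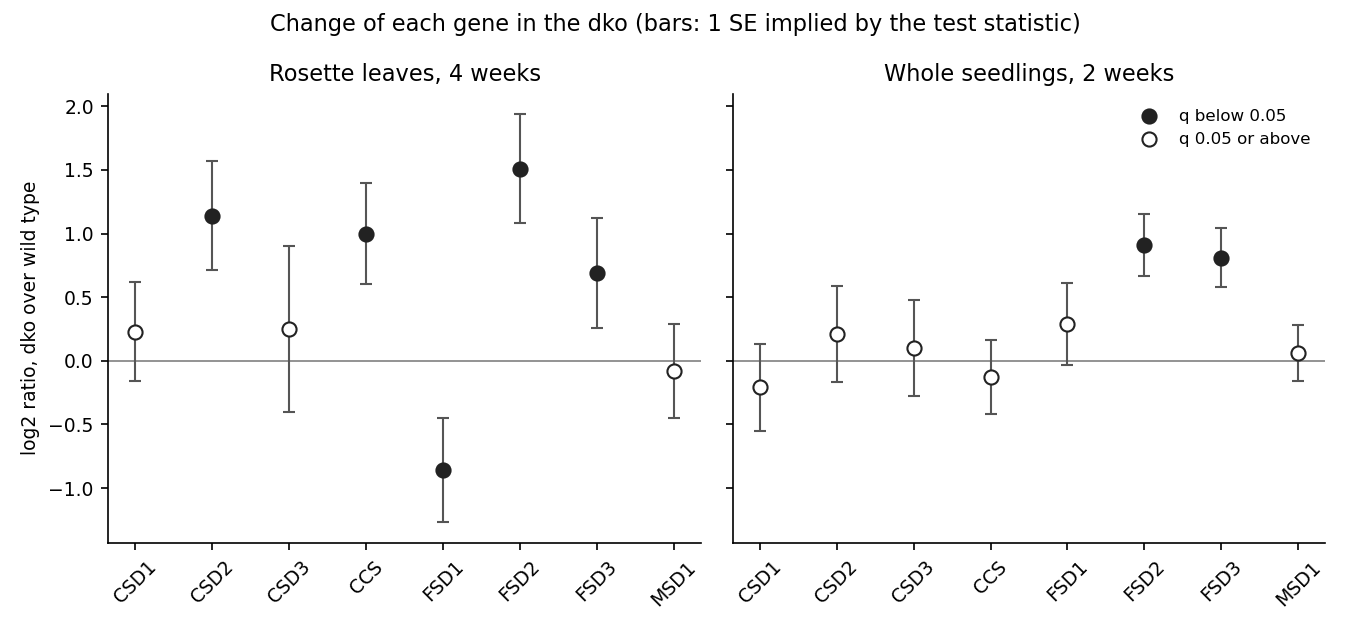
Log2 ratio of dko over wild type for each gene in rosette leaves (left) and whole seedlings (right); filled points passed q 0.05, open points did not, and bars are 1 standard error implied by the authors' test statistic. Filled points are CSD2, CCS, FSD2 and FSD3 above 0 and FSD1 below 0 in rosettes, and FSD2 and FSD3 above 0 in seedlings.

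The standard errors that the authors' test statistic implies for these log2 ratios ran from 0.37 to 0.65 in rosettes and from 0.22 to 0.38 in seedlings. They are wide beside the deposited p-values, which over all tested loci correspond to a normal deviate 1.73 times the statistic in rosettes and 1.74 times in seedlings. The order of levels between genes has no error at all in pooled values. In rosettes FSD1, CSD1 and MSD1 were the 3 highest in dko and wild type and FSD2 and FSD3 the 2 lowest, with CSD3 and CSD2 side by side in the dko at 41.3 and 40.4 FPKM. In seedlings FSD1 and MSD1 led in both groups and CSD1, CCS and CSD2 were the 3 lowest.

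By metal, iron transcripts made up 40.4% of the summed FPKM of the 7 dismutase genes in dko rosettes and 55.6% in wild-type rosettes, and copper and zinc transcripts 41.7% in dko rosettes and 27.9% in wild-type rosettes. Manganese transcripts made up 17.8% in dko rosettes and 16.5% in wild-type rosettes. The iron sum was 181 FPKM in dko rosettes and 284 FPKM in wild-type rosettes. Without FSD1 the sum of FSD2 and FSD3 was 31.7 FPKM in dko rosettes and 14.1 FPKM in wild-type rosettes. In seedlings iron transcripts made up 89.3% in the dko and 87.3% in wild type, and copper and zinc transcripts 3.78% in the dko and 4.55% in wild type. These sums are descriptions without a test.

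By compartment, the genes whose products are placed in plastids only (CSD2, FSD2 and FSD3) summed to 72.1 FPKM in dko rosettes and 32.3 FPKM in wild-type rosettes, 2.23-fold higher. In seedlings they summed to 142 FPKM in the dko and 80.3 FPKM in wild type, 1.77-fold higher. FSD1 is placed in plastids as well as the cytosol, and with it the sum was 221 FPKM in dko rosettes and 302 FPKM in wild-type rosettes (log2 ratio -0.45), the opposite direction. In seedlings the sum with FSD1 was 1581 FPKM in the dko and 1255 FPKM in wild type (log2 ratio 0.33). Over all 7 dismutases the sum was 447 FPKM in dko rosettes and 510 FPKM in wild-type rosettes (log2 ratio -0.19, or 0.08 after rescaling to nuclear-encoded loci), and 1763 FPKM in dko seedlings and 1432 FPKM in wild-type seedlings (log2 ratio 0.30).

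**Figure D3:**
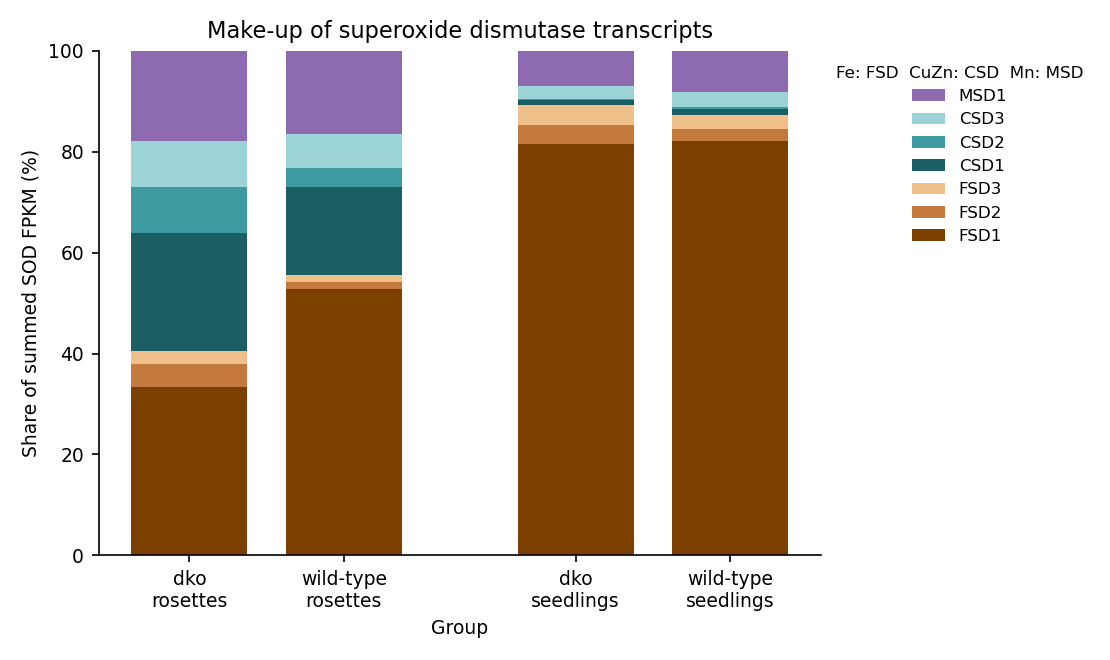
Share (%) of each of the 7 superoxide dismutase genes in their summed FPKM, for dko and wild-type rosettes and for dko and wild-type seedlings, with iron enzymes in brown, copper and zinc enzymes in blue-green and the manganese enzyme in purple. Iron enzymes hold 40.4% in dko and 55.6% in wild-type rosettes, and 89.3% in dko and 87.3% in wild-type seedlings.

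Each tissue has its own table, and the tissues were set against each other through their ratios only. With the error implied by the statistic, none of the 8 genes passed a test of a difference between tissues in its response. Adjustment was over all 17862 loci tested in both tables, of which 0.705% passed, and 2 of the 8 had an unadjusted p below 0.05. This error is wide beside the deposited p-values, on which the calls within each tissue rest, so not passing does not show a like response. FSD1 had a difference of log2 ratios, rosettes minus seedlings, of -1.15 (standard error 0.52, q = 0.702), and CCS one of 1.13 (standard error 0.50, q = 0.668). With errors scaled to match the deposited p-values, a choice made after the data were seen, FSD1 (q = 0.00308) and CCS (q = 0.00245) passed, CSD2, with a difference of 0.93, did not (q = 0.0565), and 7.64% of all loci passed. FSD2 and FSD3 differed by 0.60 and -0.11 between tissues and passed under neither error (q = 0.217 and 0.932 with the scaled error).

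**Figure D4:**
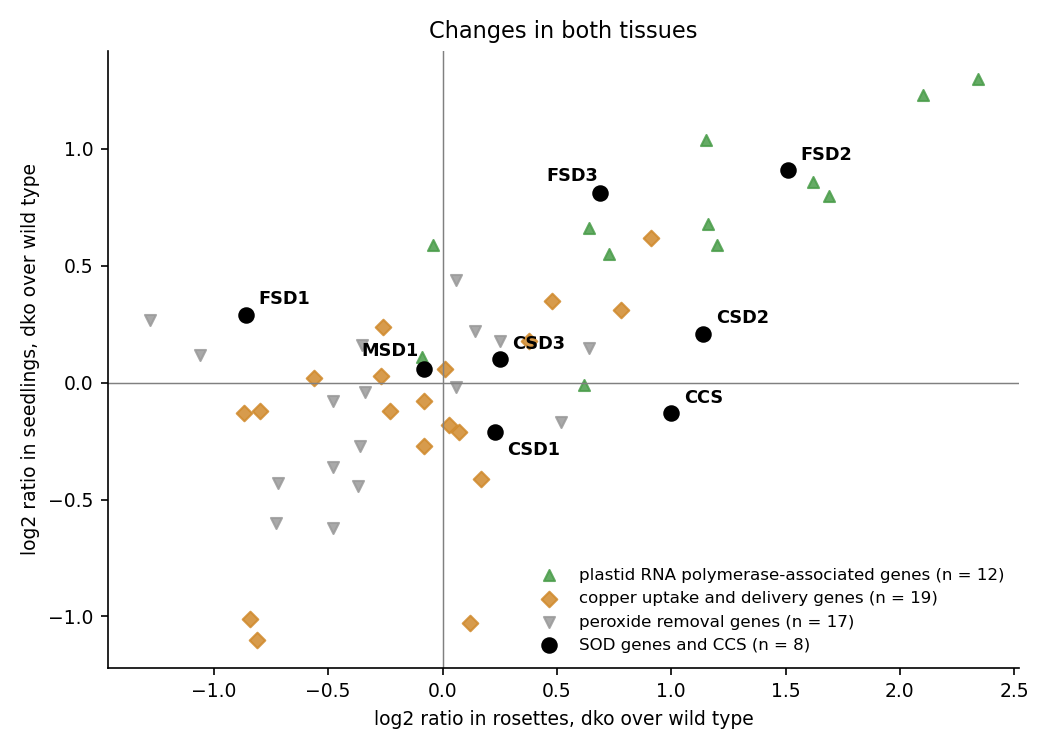
Log2 ratio of dko over wild type in rosettes (horizontal) and in seedlings (vertical) for the superoxide dismutase genes and CCS (black, labelled), plastid RNA polymerase-associated genes (green triangles), copper uptake and delivery genes (orange diamonds) and peroxide removal genes (grey triangles) tested in both tables. FSD2 and FSD3 lie in the upper right with most green triangles, CSD2 and CCS lie to the right near the horizontal line, and FSD1 lies to the left.

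Most other genes of the plastid RNA polymerase complex rose, as FSD2 and FSD3 did. Of 12 such genes tested, 10 rose in rosettes and 0 fell (0 also at an unadjusted p below 0.05), with a median log2 ratio of 1.16 beside 0.01 over all tested loci, and 10 rose and 0 fell in seedlings (again 0), with a median of 0.67 beside 0.01. Over all tested loci, 7.81% were higher and 8.94% lower in rosettes, and 8.4% higher and 8.14% lower in seedlings. This list was chosen with earlier results of these data known. FLN2 and FLN1, fructokinase-like proteins of the complex, had the highest ratios in both tissues. FLN2 had 18.5 FPKM in dko rosettes and 3.64 FPKM in wild-type rosettes, and 52.7 FPKM in dko seedlings and 21.5 FPKM in wild-type seedlings (log2 ratios 2.34 and 1.30, q = 0.000899 and 0.000768 in the authors' deposited tables). FLN1 rose by log2 ratios of 2.10 in rosettes and 1.23 in seedlings. PTAC12, the gene of the protein also known as HEMERA, rose by 1.62 and 0.86. Both had the same q-values as FLN2 in the authors' deposited tables. PRIN2, a redox-sensitive factor of plastid transcription, rose by log2 ratios of 1.69 in rosettes and 0.80 in seedlings in the authors' deposited tables. PTAC10 rose by 1.15 in rosettes and 1.04 in seedlings, both genes with the same q-values as FLN1. These 12 genes ranged from -0.09 to 2.34 in rosettes and from -0.01 to 1.30 in seedlings. The log2 ratios of FSD2 (1.51 and 0.91) and FSD3 (0.69 and 0.81) lie inside these wide ranges. So do those of CSD2, CSD3 and MSD1 in both tissues, CSD1 and CCS in rosettes and FSD1 in seedlings. The ranges therefore do not set FSD2 and FSD3 apart from the other members. CPN20, a plastid co-chaperonin that also activates FSD1 protein, had 147 FPKM in dko rosettes and 98.1 FPKM in wild-type rosettes (q = 0.180), and rose to 585 FPKM in dko seedlings against 371 FPKM in wild-type seedlings (log2 ratio 0.66, q = 0.00141) in the authors' deposited tables. Of the 3 partner genes MSD2, MTM1 and CPN20, 2 were tested in each tissue, and CPN20 in seedlings was the only one past the threshold.

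The tested copper regulators and copper microRNA precursors did not pass the test in either tissue. SPL7 had 5.78 FPKM in dko rosettes and 4.89 FPKM in wild-type rosettes (q = 0.544), and 9.15 FPKM in dko seedlings and 7.58 FPKM in wild-type seedlings (q = 0.177) in the authors' deposited tables. The precursor locus of miR398c had 2.37 FPKM in dko rosettes and 2.59 FPKM in wild-type rosettes (q = 0.872), and 10.6 FPKM in dko seedlings and 11.1 FPKM in wild-type seedlings (q = 0.880) in the authors' deposited tables. The precursor of miR398a is listed at 0 in all 4 groups, and that of miR398b at 0 in all but dko seedlings, where it is listed at 12.1 FPKM without a test. These loci measure precursor RNA, and mature microRNA was not analysed here. Of the 9 loci of copper regulators and copper microRNAs, 3 were tested in rosettes and 5 in seedlings, and Cuffdiff called 0 in either tissue (0 and 1 at an unadjusted p below 0.05). Cuffdiff called 16.8% of all tested loci in rosettes and 16.5% in seedlings, in either direction.

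COX5B-1, whose site is printed above, had 30.1 FPKM in dko rosettes and 25.0 FPKM in wild-type rosettes (log2 ratio 0.27, q = 0.453), and 20.5 FPKM in dko seedlings and 19.9 FPKM in wild-type seedlings (log2 ratio 0.04, q = 0.896) in the authors' deposited tables. Among the 4 transcripts with a miR398 site shown here, CSD2 and CCS thus passed in rosettes, while CSD1 and COX5B-1 had ratios of 0.23 and 0.27. Of the 6 laccases on the list, lignin-polymerising copper enzymes that other copper microRNAs target, 4 were tested in rosettes and LAC3 and LAC7 were not, at 0 and 0.0641 FPKM in dko rosettes and 0 in wild-type rosettes in the authors' deposited table. LAC4, LAC13 and LAC17 fell in rosettes by log2 ratios of -2.01 (q = 0.000899), -1.59 (q = 0.0231) and -1.27 (q = 0.0440), all from wild-type levels of at most 1.87 FPKM in the authors' deposited table, as did LAC2, which lies outside the rule for named genes at under 1 FPKM (q = 0.0340). On this list, which leaves out the members CSD1, CSD2 and CCS, 4 of 5 tested targets fell in rosettes. These 4 were all laccases, at 0.237 to 0.617 FPKM in dko rosettes, whereas the members CSD2 and CCS rose. In seedlings 0 of 7 passed (0 also at an unadjusted p below 0.05). Median log2 ratios of the list were -1.59 in rosettes and 0.04 in seedlings. At q 0.01 the 4 fallen targets became 1, and the share of all tested loci at that threshold was not computed. Among all tested loci 8.94% were lower and 7.81% higher in rosettes, and 8.14% lower and 8.4% higher in seedlings, with a median log2 ratio of 0.01 in both.

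Of 19 copper uptake and delivery genes tested in rosettes, 1 rose and 2 fell, and of 20 in seedlings 1 rose and 3 fell, with median log2 ratios of -0.08 and -0.10, which turned to 0.20 and 0.09 after rescaling to nuclear-encoded loci. Of all tested loci, 7.81% were higher and 8.94% lower in rosettes and 8.4% higher and 8.14% lower in seedlings, and nothing particular to the list is read from these counts. The genes that fell in both tissues encode plastocyanin, the copper protein of photosynthetic electron transport that draws on the same plastid copper as CSD2. PETE1 had 89.7 FPKM in dko rosettes and 160 FPKM in wild-type rosettes, and 125 FPKM in dko seedlings and 253 FPKM in wild-type seedlings (log2 ratios -0.84 and -1.01, q = 0.00164 and 0.000768 in the authors' deposited tables). PETE2 had 896 FPKM in dko rosettes and 1576 FPKM in wild-type rosettes, and 1082 FPKM in dko seedlings and 2321 FPKM in wild-type seedlings (log2 ratios -0.81 and -1.10, q = 0.0478 and 0.000768 in the authors' deposited tables). HCC2, a relative of the mitochondrial copper chaperone SCO1, rose in both tissues, with log2 ratios of 0.91 (q = 0.00776) and 0.62 (q = 0.0116), and FRO3, an iron reductase gene, fell in seedlings by 1.03 on the log2 scale (q = 0.000768), in the authors' deposited tables.

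Among the enzymes that remove the hydrogen peroxide made by the dismutases, ascorbate peroxidase APX1 had the largest change in rosettes of those that passed the test. Of 17 genes of catalases, ascorbate peroxidases and peroxiredoxins tested, 3 fell and 0 rose in rosettes (1 rose at an unadjusted p below 0.05), and 4 fell and 1 rose in seedlings, with median log2 ratios of -0.36 and -0.04 (-0.09 and 0.15 after rescaling to nuclear-encoded loci). The shares over all tested loci were 8.94% lower and 7.81% higher in rosettes and 8.14% lower and 8.4% higher in seedlings, for these genes and for the reductases below, and nothing particular to either list is read from its count. APX1, the cytosolic ascorbate peroxidase, had 151 FPKM in dko rosettes and 315 FPKM in wild-type rosettes (log2 ratio -1.06, q = 0.000899 in the authors' deposited table). TAPX, the thylakoid form, fell by 0.73 in rosettes and by 0.60 in seedlings on the log2 scale, and SAPX, the stromal form, rose in seedlings (log2 ratio 0.44, q = 0.00635) in the authors' deposited tables. PRXQ, a plastid peroxiredoxin, fell in rosettes (log2 ratio -0.72, q = 0.0206) and in seedlings (log2 ratio -0.43, q = 0.00968) in the authors' deposited tables. In seedlings 2CPB, another plastid peroxiredoxin, and CAT2, the leaf catalase, fell as well (log2 ratios -0.62 and -0.44). Of 10 reductases that recycle ascorbate and glutathione, with median log2 ratios of -0.24 in rosettes and -0.01 in seedlings (0.04 and 0.18 after rescaling), MDAR3 (log2 ratio -2.73) and DHAR1 (-0.62) fell in rosettes, and in seedlings MDAR2 fell (-0.54) and MDAR1 rose (0.35), per the authors' deposited tables.

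Loci with a pair of ratios nearest to those of FSD2 and FSD3, the members called in both tissues, were sought by Euclidean distance. The search covered 17183 other loci tested in both tables, with the higher group at 1 FPKM or more in each. Nearest to FSD2 were AT3G19440 (log2 ratios 1.5 and 0.9), the long non-coding RNA locus AT1G71528 (1.47 and 0.93) and HDA3, a plant-specific histone deacetylase (1.52 and 0.87). Nearest to FSD3 were PHB3, a prohibitin of the mitochondrial inner membrane (0.70 and 0.80), AT2G07728 (0.68 and 0.79) and AKR4C10, an aldo-keto reductase (0.68 and 0.82). A pair of ratios is a thin basis for likeness, and in the authors' deposited tables AT2G07728 passed the test in neither tissue, AT1G71528 in rosettes only and AKR4C10 in seedlings only. AT1G71528 and AT2G07728 also reached 1 FPKM through the dko alone. In wild type AT1G71528 had 0.519 FPKM in rosettes and 0.795 FPKM in seedlings, and AT2G07728 had 0.881 and 0.977 FPKM.

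Sequence shared with other annotated protein-coding transcripts, compared in the sense direction only, touched 1 member. No reads were examined, and the other-strand overlaps of CSD1 and CSD3 given above lie outside this comparison. Of 1686 stretches of 50 bases in the FSD2 transcripts, 34 (2.02%) also occur in AT4G00651, which had 0.426 and 0.492 FPKM in dko and wild-type rosettes and 0.232 and 0.589 FPKM in dko and wild-type seedlings in the authors' deposited tables. None was shared with another annotated protein-coding transcript for the remaining 7 genes. In the coordinates of the tables (TAIR10, counted from 1), CSD2 lies at chr2:12014498-12016569, FSD1 at chr4:12884300-12887011, FSD2 at chr5:20773296-20775701, FSD3 at chr5:7850523-7852532, MSD1 at chr3:3417954-3419853 and CCS at chr1:4267106-4268926. CSD1 and CSD3, whose table spans include their neighbours, lie at chr1:2827060-2829315 and chr5:5987187-5988885 in TAIR10.1.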

How the data were processed

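Total RNA was depleted of ribosomal RNA and made into stranded libraries, per the labels' protocols. The submitters' processing notes name TAIR10 and, all with version 2.2.0, the tools TopHat2, Bowtie2, Cuffdiff and Cufflinks. Annotation, normalization between libraries and handling of multiply mapped reads were not given in the sources used here. FPKM were deposited by the authors as 1 pooled value per group, and the log2 ratio of dko over wild type, the test score (Cuffdiff's statistic), the p-value and the q-value as the authors' deposited results. Recomputed log2 ratios differed by at most 5.01e-05 and q-values by at most 5.24e-07. Cuffdiff estimates FPKM from transcript models; no read counts were used here, and no count test was run.

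From the deposited score, an error of each log2 ratio was derived as ratio over score and used in a normal test of the difference between tissues, with Benjamini-Hochberg adjustment; it was run because the normal p of the score ranked loci as the deposited p did (Spearman 0.991 and 0.995 across loci), and its code was tested on simulated ratios, which does not test the size of that error. Python 3.11.15, numpy 2.4.6, pandas 2.3.3, scipy 1.17.1 and matplotlib 3.10.9 were used. The 8 members and the 82 genes of 7 related lists were chosen with earlier results of these data known. Besides members, each list contributes per tissue at most 4 named genes, together with fixed partners and the 3 nearest loci. Those 4 had the greatest absolute ratio among genes called at q 0.05, above 0 in both groups and at 1 FPKM or more in the higher group. Sequences are from RefSeq, TAIR10.1; of 27983 nuclear loci in both, 8302 starts were equal after adding 1 and 134 without.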

Additional observations from a re-analysis of the deposited data

How the results depend on the processing

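For the 16 log2 ratios of the members, 4 alternatives change the ratio and keep the deposited q, so only direction could move. Adding 1 or 0.1 FPKM to both groups cannot turn a sign. Recentring on the median log2 ratio of 0.01 could not turn one either, because every member's ratio was larger in size. Only rescaling to nuclear-encoded loci could, so most of the 62 of 64 values that kept their direction were bound to keep it. The other 4 alternatives change the threshold or the adjustment and keep the ratio. The call held in 63 of 64 values, and FSD3 in rosettes no longer passed at q 0.01. Rescaling FPKM to nuclear-encoded loci raised every log2 ratio, since the summed nuclear FPKM had a log2 ratio of -0.28 in rosettes and -0.19 in seedlings. Organelle-encoded loci held 66.4% of FPKM in dko rosettes, 64.9% in wild-type rosettes, 60.3% in dko seedlings and 61.4% in wild-type seedlings. In seedlings this share and the nuclear sum were thus both lower in the dko, and the source of the lower nuclear sums was not tested. The rescaling turned the sign of MSD1 in rosettes (0.20) and CCS in seedlings (0.06), neither of which passed the test, and of the sum of all 7 dismutases in rosettes (0.08), and took the plastid sum in seedlings to 1.01; FSD1 in rosettes stayed lower at -0.58. Leaving FSD1 out turned the log2 ratio of the iron sum to 1.17 in rosettes and moved it to 0.86 in seedlings. Adding FSD1 to the plastid sum, chosen after seeing the data, turned its log2 ratio to -0.45 in rosettes and moved it to 0.33 in seedlings. Asking for a 2-fold change as well left 3 members higher in rosettes (CSD2, FSD2 and CCS), 0 lower in rosettes and 0 higher in seedlings. The share of all tested loci was not computed under this or the other changed thresholds, so nothing is read from such counts. Between tissues, FSD1 (-1.15) and CCS (1.13) passed with errors scaled to the deposited p-values alone. Related lists were recounted at q 0.01 and 0.1 and over nuclear-encoded loci, alternatives chosen, like those scaled errors, after seeing the data; the fallen microRNA targets in rosettes dropped to 1 at q 0.01. No paired analysis was possible because each group has 1 pooled value without replicates, and for that reason no replicate could be left out. Depth is unknown, so the lowest changes these libraries could show cannot be stated.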
